A study of Mus musculus with 29 samples.

Results

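Nr3c1, Fkbp5, Errfi1, Adcyap1r1 and Glcci1 are 5 mouse genes of glucocorticoid receptor and stress signalling. The genes were chosen by name, with earlier results of these data known, and taken from every table that held a row for them. They were 5 of the 10678 gene models measured over both brain regions. In the amygdala 4 of 9872 gene models were members (Nr3c1, Fkbp5, Errfi1 and Adcyap1r1), and in the medial prefrontal cortex 1 of 6080 was (Glcci1). No gene of the group was measured in both regions here, so no member could be compared between them.

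Corticosterone, the main glucocorticoid of the mouse, enters cells and binds the receptor encoded by Nr3c1, a ligand-activated transcription factor held ready by Hsp90 and its co-chaperones. Fkbp5 encodes one such co-chaperone, which lowers the receptor's affinity for hormone and is itself induced by the receptor, a short feedback loop. Errfi1 encodes an adaptor that inhibits ErbB receptor tyrosine kinases and is induced by glucocorticoids and growth factors. Adcyap1r1 encodes PAC1, the receptor for the stress peptide PACAP, which couples to cAMP and phospholipase C signalling. Glcci1 was named as a transcript induced by glucocorticoids.

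The libraries came from pyramidal neurons sorted from B6.Cg-Tg(Thy1-YFP)HJrs/J mice, in which the neuronal Thy1 promoter drives a yellow fluorescent protein in a part of the projection neurons, and all groups shared this transgene. The mice were labelled Res-T or Sus-T, names that the labels do not spell out, and either without or with trauma, whose kind and timing the labels used here do not give. The amygdala had 3 Res-T and 2 Sus-T libraries without trauma and 4 Res-T and 4 Sus-T libraries with trauma. The prefrontal cortex had 4 and 2 libraries without trauma and 3 and 4 with it. Ages are not given in the labels used here. For the amygdala the design text speaks of 9 mice, against 13 libraries, and no label ties a library to an animal, so the p-values measure the spread between libraries, some of which may share a mouse. Values are in the deposited arbitrary units, whose read depth is unknown, and their totals ran from 3267967 to 4021272 per amygdala library and from 2095138 to 2444486 per prefrontal library.

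The label of the sorted cells was set against markers. Of 12 pyramidal neuron markers, 3 were measured in the amygdala (Camk2a, Camk2n1 and Nrgn) and 0 in the prefrontal cortex, so the prefrontal label could not be checked this way. The summed value of those 3 was 0.00494% to 0.00768% of the library in Res-T and 0.105% to 0.129% in Sus-T without trauma, and 0.0197% to 0.0443% in Res-T and 0.0527% to 0.218% in Sus-T with trauma. Oligodendrocyte markers made up far more in the same libraries, 5.61% to 6.59% in Res-T without trauma, 1.78% to 2.65% in Sus-T without trauma, 4.22% to 5.32% in Res-T with trauma and 3.57% to 4.89% in Sus-T with trauma (15 of 16 measured). From Res-T to Sus-T without trauma limma called 3 of 3 measured pyramidal, 3 of 3 microglial and 5 of 9 astrocyte markers higher, 13 of 15 oligodendrocyte and 1 of 4 vascular markers lower, 1 of 2 oligodendrocyte precursor markers each way and 0 of 1 interneuron marker. Of all amygdala genes 12.4% were called higher and 15% lower in that comparison. Between prefrontal groups with trauma limma called 7 of 9 oligodendrocyte markers lower, the 1 precursor marker (Pdgfra) higher and 0 of 5 astrocyte markers, and no interneuron, microglial or vascular marker was measured there. Of all prefrontal genes 14% were called higher and 8.93% lower in that comparison. In such bulk libraries, fewer cells of a type and less RNA per cell cannot be told apart.

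Positions are those of the GENCODE M21 annotation on GRCm38.p6. Fkbp5 (ENSMUSG00000024222.17) spans chr17:28399094-28517527 on the minus strand. Errfi1 (ENSMUSG00000028967.10) spans chr4:150853919-150868892, Adcyap1r1 (ENSMUSG00000029778.12) spans chr6:55451978-55501451 and Glcci1 (ENSMUSG00000029638.17) spans chr6:8509600-8597548, all 3 on the plus strand. The exons of Nr3c1, Fkbp5, Errfi1 and Adcyap1r1 overlap no exon of another annotated gene. Glcci1 shares 5412 of its 7756 exon bases with the predicted gene Gm45062 on the same strand, and no row for Gm45062 was analysed here, so how the quantification divided reads between the pair is unknown and its values carry that limit.

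Because these genes are studied as receptor-responsive or cAMP-linked, the 250 bases before the start of 4 of them are shown, as RefSeq sequence on GRCm38.p6, written 5′ to 3′ on the gene's strand and ending at the base before the start. Capitals mark matches to 6 motifs searched on both strands: the glucocorticoid half-site AGAACA, the full glucocorticoid response element (AGAACA and TGTTCT with any 3 bases between them), the cAMP response element TGACGTCA, the E-box CACGTG, the GC box GGGCGG and the TATA box TATAAA. The windows are chr17:28486150-28486399 (minus strand) for Fkbp5, chr4:150854820-150855069 (plus) for Errfi1, chr6:55451728-55451977 (plus) for Adcyap1r1 and chr6:8509350-8509599 (plus) for Glcci1.
Fkbp5: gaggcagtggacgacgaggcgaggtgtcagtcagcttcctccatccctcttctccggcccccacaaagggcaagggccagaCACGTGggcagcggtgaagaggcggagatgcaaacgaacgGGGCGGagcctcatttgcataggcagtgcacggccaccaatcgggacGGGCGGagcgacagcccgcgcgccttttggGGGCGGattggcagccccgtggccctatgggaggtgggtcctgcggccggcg
Errfi1: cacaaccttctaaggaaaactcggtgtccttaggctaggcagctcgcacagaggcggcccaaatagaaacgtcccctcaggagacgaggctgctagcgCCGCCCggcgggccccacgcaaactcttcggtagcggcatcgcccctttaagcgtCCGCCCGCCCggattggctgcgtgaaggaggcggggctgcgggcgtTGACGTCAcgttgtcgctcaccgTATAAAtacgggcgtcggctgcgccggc
Adcyap1r1: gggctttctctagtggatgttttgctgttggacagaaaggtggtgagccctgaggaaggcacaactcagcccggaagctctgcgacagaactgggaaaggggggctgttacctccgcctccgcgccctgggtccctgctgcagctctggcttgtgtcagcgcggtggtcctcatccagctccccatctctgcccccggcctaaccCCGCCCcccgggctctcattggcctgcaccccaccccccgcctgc
Glcci1: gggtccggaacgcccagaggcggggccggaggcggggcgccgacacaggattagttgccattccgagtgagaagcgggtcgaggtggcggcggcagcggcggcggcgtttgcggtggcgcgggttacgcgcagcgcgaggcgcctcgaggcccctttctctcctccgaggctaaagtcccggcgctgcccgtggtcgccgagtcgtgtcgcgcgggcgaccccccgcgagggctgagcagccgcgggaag

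None of the 4 windows held the glucocorticoid response element or its half-site, and the same search found them in 0.00913% and 16.1% of all 32851 promoter windows of this length. The half-site is contained in the full element, so the searches overlap. Errfi1 held a full cAMP response element 51 bases before the start, with a TATA box at 28 and GC boxes at 152, 97 and 93, the last pair overlapping. The cAMP response element occurred in 1.55% of all windows and the TATA box in 12.4%. Fkbp5 held an E-box at 169 bases, found in 6.02% of windows, and GC boxes at 129, 82 and 52. Adcyap1r1 held 1 GC box at 45 bases, a motif of 32.7% of windows, and Glcci1 held no match. The GC content was 68.0% in Fkbp5, 64.8% in Errfi1, 65.6% in Adcyap1r1 and 74.4% in Glcci1, against a median of 52.4% over all windows. These are matches of letters in short windows and say nothing of binding.

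Per kilobase of exon, to allow for unlike gene length, Nr3c1 was the highest member in the amygdala at a mean of 144.7 units per kilobase over 13 libraries. Adcyap1r1 at 89.3 and Errfi1 at 89.1 were level with each other, and Fkbp5 was far lower at 10.5. The length was that of all annotated exons of a gene, not of the transcripts in use. Whether the deposited signal scales with length is unknown, so these levels are rough. On the gene-level scale, the mean of Nr3c1 exceeded that of 94.5% of amygdala genes, Adcyap1r1 that of 85.9%, Errfi1 that of 72.4% and Fkbp5 that of 37.5%. Glcci1 stood at 59.9 units per kilobase in the prefrontal cortex, above 79.6% of the genes there, but the regions were normalized separately and that level cannot be set beside the others. Over all 13 amygdala libraries the coefficient of variation was 17.0% for Nr3c1, 32.2% for Errfi1, 35.4% for Adcyap1r1 and 55.9% for Fkbp5. These values pool the 4 groups, whose means differ. Within the groups with trauma the order changed, with Adcyap1r1 at 10.7% and 10.2% in Res-T and Sus-T, below Nr3c1 at 13.6% and 12.1%. Within those without trauma Nr3c1 stayed below, at 8.09% and 12.9% in Res-T and Sus-T, against 15.7% and 36.2% for Adcyap1r1.

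**Figure D1:**
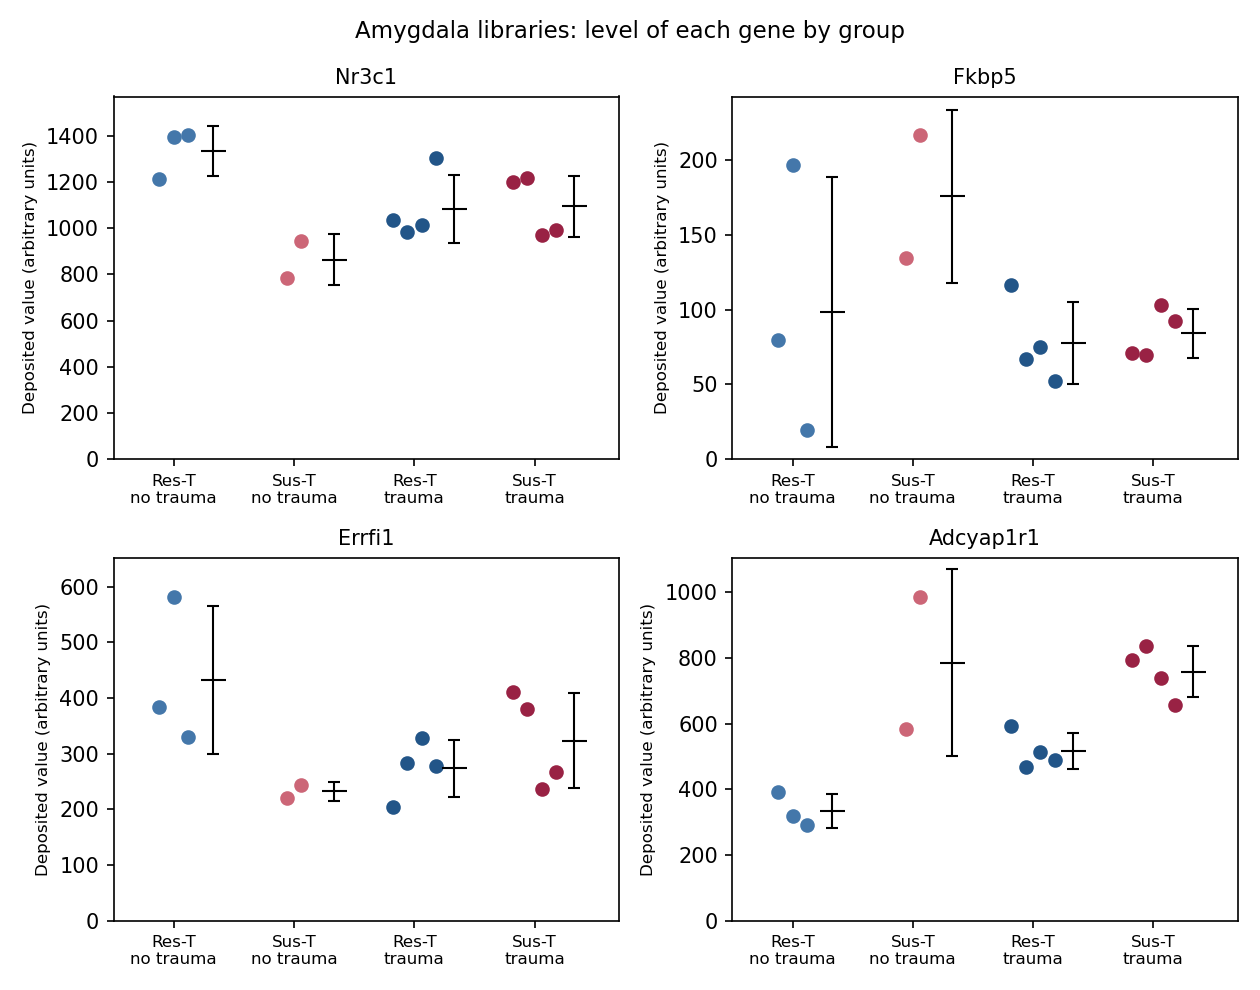
Deposited value (arbitrary units, vertical axis from 0) of Nr3c1, Fkbp5, Errfi1 and Adcyap1r1 in the 13 amygdala libraries, 1 point per library, by group (3, 2, 4 and 4 libraries from left to right), with bars for the group mean and SD. Nr3c1 and Errfi1 had their highest mean in Res-T without trauma and their lowest in Sus-T without trauma, Adcyap1r1 had its lowest mean in Res-T without trauma, and the 3 Fkbp5 points of that group spread from 19.4 to 196.5.

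Nr3c1 (ENSMUSG00000024431.15, chr18:39410545-39519421, minus strand, GRCm38.p6), the glucocorticoid receptor itself, was lower in Sus-T than in Res-T amygdala libraries without trauma, and the groups were level with trauma. Its values were 1211, 1393 and 1402 in Res-T without trauma and 785.2 and 943.3 in Sus-T without trauma. With trauma they were 1035, 984.7, 1015 and 1303 in Res-T and 1201, 1219, 970.6 and 990.3 in Sus-T. The groups without trauma did not overlap, and every library with trauma lay between the highest Sus-T and the highest Res-T library without trauma. The order of the means was Res-T without trauma (1335 ± 108, SD, n = 3), Sus-T with trauma (1095 ± 133, n = 4), Res-T with trauma (1084 ± 147, n = 4) and Sus-T without trauma (864.2 ± 111.8, n = 2). The 2 groups with trauma, neighbours in that order, differed by less than their spread.

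In the limma fit of all amygdala genes, Nr3c1 fell by 0.63 ± 0.19 (log2 with standard error) from Res-T to Sus-T without trauma, 1.55-fold, with a 95% interval from -1.03 to -0.23 and an adjusted p of 0.0213. Of all 9872 genes 27.4% were called in that comparison, 15% lower and 12.4% higher, and 58.9% had groups that did not overlap. A larger absolute difference was seen for 46.7% of genes, so the shift of Nr3c1 was of middling size there. With trauma the difference was 0.02 ± 0.15 (interval -0.30 to 0.33, limma adjusted p = 0.978). The effect of trauma was -0.31 ± 0.16 in Res-T (limma adjusted p = 0.265) and 0.34 ± 0.18 in Sus-T (limma adjusted p = 0.489). In Sus-T the groups did not overlap, as for 20.4% of all genes. The difference between those effects, 0.65 ± 0.24 (interval 0.13 to 1.16), had a limma adjusted p of 0.115.

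The call for Nr3c1 was lost when Res-T replicate 2 (-0.60, limma adjusted p = 0.0624), Res-T replicate 3 (-0.59, 0.0633) or Sus-T replicate 1 (-0.50, 0.193) without trauma was left out, with quantile normalization (-0.41, 0.0887) and with the replicate number as a block (-0.61, 0.0514). With the mean of the oligodendrocyte markers as a covariate, the Nr3c1 difference was -0.19 ± 0.53 (limma adjusted p = 0.899), against -0.63 ± 0.19 without it. With so large a standard error, that fit cannot tell a lost difference from an unchanged one. Across the 13 libraries Nr3c1 followed that marker mean with Pearson r = 0.80 and Spearman rho = 0.73, and with r = 0.36 once group means were removed. Other marker means moved with it too, at r = 0.66 for vascular (0.35 within groups) and -0.68 for microglial markers (-0.35). Pyramidal markers gave -0.55 (0.18 within groups) and astrocyte markers -0.35 (0.31). The markers' part in the result was not tested beyond this.

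Fkbp5, the receptor's co-chaperone and feedback target, gave no call in any of the 5 amygdala comparisons. Its values were 79.6, 196.5 and 19.4 in Res-T without trauma and 134.8 and 216.5 in Sus-T without trauma. With trauma they were 116.4, 67.0, 74.9 and 52.1 in Res-T and 71.3, 69.7, 102.8 and 92.6 in Sus-T. The 2 Sus-T libraries without trauma exceeded all 8 libraries with trauma, while the Res-T libraries without trauma held both the lowest value of all and the second highest. The means were 175.6 ± 57.8 (n = 2) in Sus-T without trauma, 98.5 ± 90.02 (n = 3) in Res-T without trauma, 84.1 ± 16.3 (n = 4) in Sus-T with trauma and 77.6 ± 27.6 (n = 4) in Res-T with trauma.

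The Fkbp5 difference between Sus-T and Res-T without trauma was 1.32 ± 0.63 (log2, interval -0.001 to 2.65, limma adjusted p = 0.129), and it moved with single libraries from 0.45 to 2.08. Without Res-T replicate 2, whose value was 196.5, it was 2.08 with a limma adjusted p of 0.0127. With trauma the difference was 0.16 ± 0.49 (interval -0.87 to 1.18, limma adjusted p = 0.937). In Sus-T the effect of trauma was -1.03 ± 0.60 (interval -2.29 to 0.22, limma adjusted p = 0.527), and 7.46% of genes differed by more. The groups did not overlap, as for 20.4% of all genes. In Res-T the effect of trauma was 0.13 ± 0.53 (limma adjusted p = 0.913), and its sign turned without Res-T replicate 3 without trauma (-0.74) or Res-T replicate 1 with trauma (-0.08). The intervals are wide, so a change of Fkbp5 as large as that of Nr3c1 was not detectable here.

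Errfi1, the ErbB inhibitor, was lower in Sus-T than in Res-T libraries without trauma. The values were 384.3, 582.5 and 330.6 in Res-T without trauma and 220.5 and 244.6 in Sus-T without trauma. With trauma they were 203.9, 283.4, 327.9 and 278.4 in Res-T and 410.7, 380.2, 236.2 and 266.4 in Sus-T. Res-T without trauma overlapped neither Sus-T without trauma nor Res-T with trauma, as for 58.9% and 23.1% of all genes. The Sus-T libraries with trauma fell into a higher and a lower pair. The means ran from 432.5 ± 132.7 (n = 3) in Res-T without trauma through 323.4 ± 85.1 (n = 4) in Sus-T with trauma and 273.4 ± 51.4 (n = 4) in Res-T with trauma to 232.6 ± 17.03 (n = 2) in Sus-T without trauma, the same order of groups as for Nr3c1.

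From Res-T to Sus-T without trauma Errfi1 fell by 0.85 ± 0.29 on the log2 scale, 1.80-fold (interval -1.46 to -0.24, limma adjusted p = 0.0364). With trauma the difference was 0.22 ± 0.22 (interval -0.25 to 0.70, limma adjusted p = 0.753). The effect of trauma was -0.64 ± 0.24 in Res-T (limma adjusted p = 0.12) and 0.44 ± 0.28 in Sus-T (limma adjusted p = 0.574). The difference between those effects was 1.08 ± 0.37 (interval 0.30 to 1.85, limma adjusted p = 0.0843). The call without trauma was lost without Res-T replicate 1 (adjusted p = 0.0586 in limma), Res-T replicate 2 (0.16), Sus-T replicate 1 (0.177) or Sus-T replicate 3 (0.0947), with the replicate block (-0.73, 0.083) and without limma's trend and robust options (0.0645). Once the oligodendrocyte marker mean entered the fit the sign of the Errfi1 difference turned (0.24 ± 0.78, limma adjusted p = 0.914). With so large a standard error, that fit cannot tell a lost or turned difference from an unchanged one. Across the libraries Errfi1 followed that mean with r = 0.64 and rho = 0.66, or 0.44 within groups.

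Adcyap1r1, the PACAP receptor, was higher in Sus-T than in Res-T libraries without trauma, and it was the 1 amygdala member whose call held without any single library. The values were 391.3, 317.3 and 290.3 in Res-T without trauma and 584.6 and 986.6 in Sus-T without trauma. With trauma they were 592.5, 466.1, 514.1 and 488.2 in Res-T and 794.3, 837.4, 739.8 and 657.5 in Sus-T. All 6 Sus-T libraries but 1 exceeded every Res-T library, the exception being Sus-T replicate 1 without trauma (584.6), just under Res-T replicate 1 with trauma (592.5). The means were 333.0 ± 52.3 (n = 3) and 785.6 ± 284.3 (n = 2) without trauma and 515.2 ± 55.1 (n = 4) and 757.2 ± 77.6 (n = 4) with trauma. The highest neighbours, both Sus-T groups, differed by less than their spread.

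Adcyap1r1 rose by 1.199 ± 0.228 (log2) from Res-T to Sus-T without trauma, 2.30-fold (interval 0.72 to 1.68, limma adjusted p = 0.000925). Leaving out any 1 of the 5 libraries kept the call, with differences from 0.82 to 1.58 and limma adjusted p from 0.00117 to 0.036. With trauma the difference was 0.55 ± 0.18 (interval 0.18 to 0.93), in the same direction and with groups that did not overlap, but its limma adjusted p was 0.234. In that comparison limma called 0 genes, 0% of 9872, with 1142 at an unadjusted p below 0.05, and 5.75% of genes had groups that did not overlap. The effect of trauma was 0.63 ± 0.19 in Res-T (limma adjusted p = 0.0557, groups not overlapping, as for 23.1% of genes) and -0.01 ± 0.22 in Sus-T (limma adjusted p = 0.993). The difference between the effects was -0.64 ± 0.29 (interval -1.25 to -0.04, limma adjusted p = 0.184).

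Adcyap1r1 is known in astrocytes as well as neurons, and its level moved with markers of both. It followed the mean of 9 astrocyte markers with r = 0.82 and rho = 0.86 over the 13 libraries and r = 0.59 within groups, and the 3 pyramidal markers with r = 0.83 and rho = 0.76 but -0.01 within groups. Astrocyte markers summed to 0.285% to 0.451% of the library in Res-T without trauma, 1.01% to 1.85% in Sus-T without trauma, 0.27% to 0.777% in Res-T with trauma and 0.699% to 1.54% in Sus-T with trauma, of 9 measured markers among 10. Against oligodendrocyte markers the correlation was -0.59 over all libraries and 0.73 within groups. When the oligodendrocyte marker mean was a covariate, the difference without trauma grew to 2.47 ± 0.56, with a limma adjusted p of 0.0724, and the trauma effect in Res-T became 0.99 (limma adjusted p = 0.0243). The part of astrocyte RNA in the result was not tested.

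**Figure D2:**
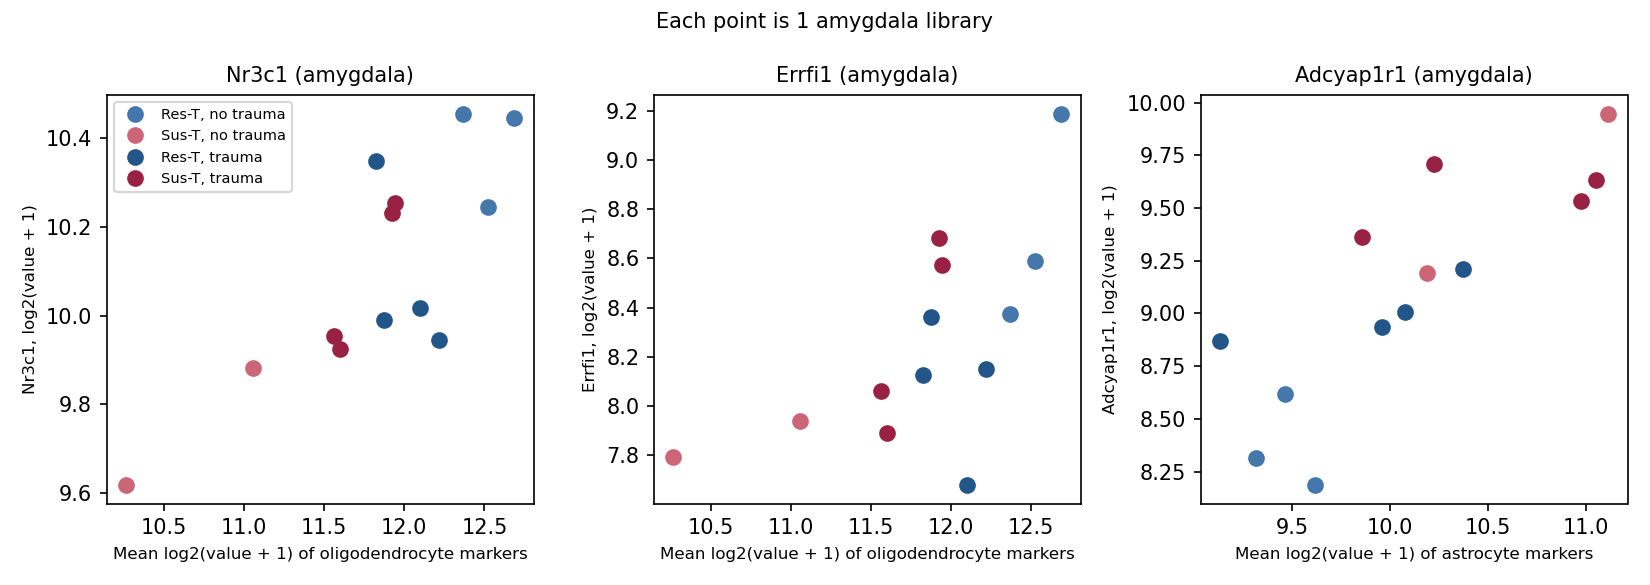
Level of Nr3c1 and Errfi1 against the mean level of 15 oligodendrocyte markers, and of Adcyap1r1 against that of 9 astrocyte markers, all as log2(value + 1), 1 point per amygdala library and coloured by group. The Sus-T libraries without trauma lie lowest in oligodendrocyte markers and low in Nr3c1 and Errfi1, and the Res-T libraries without trauma lie low in astrocyte markers and lowest in Adcyap1r1 (r = 0.80, 0.64 and 0.82).

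In the amygdala without trauma, then, 3 of the 4 members were called between Sus-T and Res-T, 1 higher and 2 lower, where 27.4% of all genes were called. Since the members were chosen with earlier results of these data known, that count is no test of the group of genes. The Nr3c1 and Errfi1 calls hung on single libraries, and with the oligodendrocyte marker covariate, which widened the standard errors, none of the 3 was called. Trauma in Res-T called 0 of 4 members against 6.18% of genes, and 2 of 4 had groups that did not overlap (Errfi1 and Adcyap1r1) against 23.1%. Of the 610 genes called there 53.4% were higher, and after quantile normalization 70.8% of 500 were. Trauma in Sus-T called 0 of 4 members against 0.0304% of genes, with 2 of 4 not overlapping (Nr3c1 and Fkbp5) against 20.4%. The difference between the trauma effects called 0 of 4 against 6.74%, with 70.7% of its 665 called genes higher, and 57.8% of 595 after quantile normalization. These comparisons share groups, the Res-T libraries without trauma entering 3 of them, so their values are not independent of each other.

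Among the members themselves, Nr3c1 and Errfi1 were the most alike across the 13 amygdala libraries, with r = 0.73, or 0.47 once group means were removed. Adcyap1r1 ran against both over all libraries, with r = -0.53 for Nr3c1 and -0.42 for Errfi1, but not within groups (0.28 and 0.13). Fkbp5 also ran against the receptor (r = -0.47, within groups -0.21). It went with Adcyap1r1 (0.41, within groups 0.35) and did not follow Errfi1 over all libraries (-0.08, within groups 0.28). These correlations rest on libraries that share the groups and the normalization and are given as a description.

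**Figure D3:**
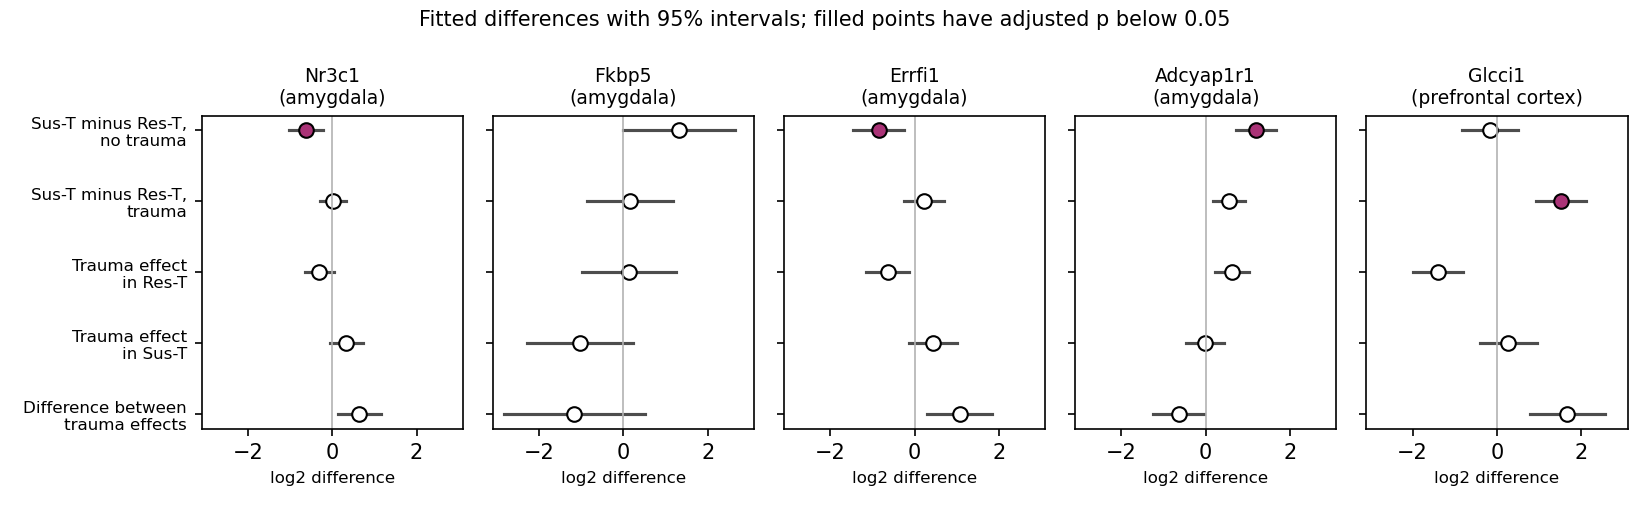
Fitted log2 difference (horizontal axis) with its 95% interval for each member in the 5 comparisons of its region, from limma, with filled points for an adjusted p below 0.05. Filled points are Nr3c1 (-0.63), Errfi1 (-0.85) and Adcyap1r1 (1.199) between Sus-T and Res-T amygdala libraries without trauma and Glcci1 (1.52) between prefrontal libraries with trauma, and Fkbp5 has the widest intervals.

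Glcci1, a transcript induced by glucocorticoids, was far lower in prefrontal Res-T libraries with trauma than in any other group. Its values were 618.6, 689.2, 530.7 and 323.3 in Res-T without trauma and 391.7 and 553.7 in Sus-T without trauma. With trauma they were 227.7, 184.7 and 180.7 in Res-T and 384.1, 716.7, 724.6 and 509.2 in Sus-T. Every Res-T library with trauma lay below each of the other 10 libraries, whose ranges overlapped among themselves. The means were 583.6 ± 166.3 (n = 4) in Sus-T with trauma, 540.4 ± 158.6 (n = 4) in Res-T without trauma, 472.7 ± 114.6 (n = 2) in Sus-T without trauma and 197.7 ± 26.1 (n = 3) in Res-T with trauma, and the first 3 of these differed by less than their spread.

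With trauma Glcci1 was higher in Sus-T than in Res-T by 1.52 ± 0.28 (log2), 2.86-fold (interval 0.93 to 2.11, limma adjusted p = 0.00274). In this comparison 23% of 6080 genes were called, 14% higher and 8.93% lower, and 40.7% did not overlap between groups, while 9.66% differed by more than Glcci1. The median gene differed by 0.15 there, or -0.01 after quantile normalization, under which Glcci1 differed by 1.45 (limma adjusted p = 0.00291). Leaving out each library in turn gave 1.40 to 1.70, with limma adjusted p from 0.00518 to 0.0201.

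Without trauma the Sus-T to Res-T difference of Glcci1 was -0.16 ± 0.32 (interval -0.83 to 0.51, limma adjusted p = 0.891). The effect of trauma in Res-T was -1.40 ± 0.28 (interval -1.99 to -0.81), larger in size than for all but 4.72% of genes, with a limma adjusted p of 0.105. In Sus-T it was 0.28 ± 0.32 (interval -0.39 to 0.95, limma adjusted p = 1). The difference between those effects was 1.68 ± 0.42 (interval 0.78 to 2.57, limma adjusted p = 0.774). In these 4 comparisons limma called 0% of genes, with 630, 899, 91 and 371 of 6080 at an unadjusted p below 0.05 in the order given, and 0% too without limma's trend and robust options. Groups did not overlap for 14.9% of genes without trauma, 13.1% under trauma in Res-T, where Glcci1 was among them, and 8.03% under trauma in Sus-T.

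Res-T replicate 4 without trauma, the library with 323.3, decided 2 of those values. Without it the trauma effect in Res-T was -1.63 ± 0.26 with a limma adjusted p of 0.00228, and the difference between the effects was 1.90 ± 0.37 with a limma adjusted p of 0.048. That library also held the most oligodendrocyte marker signal of the region. Over 9 measured markers of 16 the sum was 2.88% to 7.70% of the library in Res-T without trauma, 2.26% to 3.28% in Sus-T without trauma, 4.76% to 6.68% in Res-T with trauma and 2.32% to 4.03% in Sus-T with trauma. Glcci1 ran against the marker mean with r = -0.78 and rho = -0.77 over 13 libraries and r = -0.68 within groups. With that mean as a covariate the difference with trauma was 0.80 ± 0.36 (limma adjusted p = 0.413), and 0 genes of the region were then called in that comparison. The markers' part in the result was not tested beyond this.

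**Figure D4:**
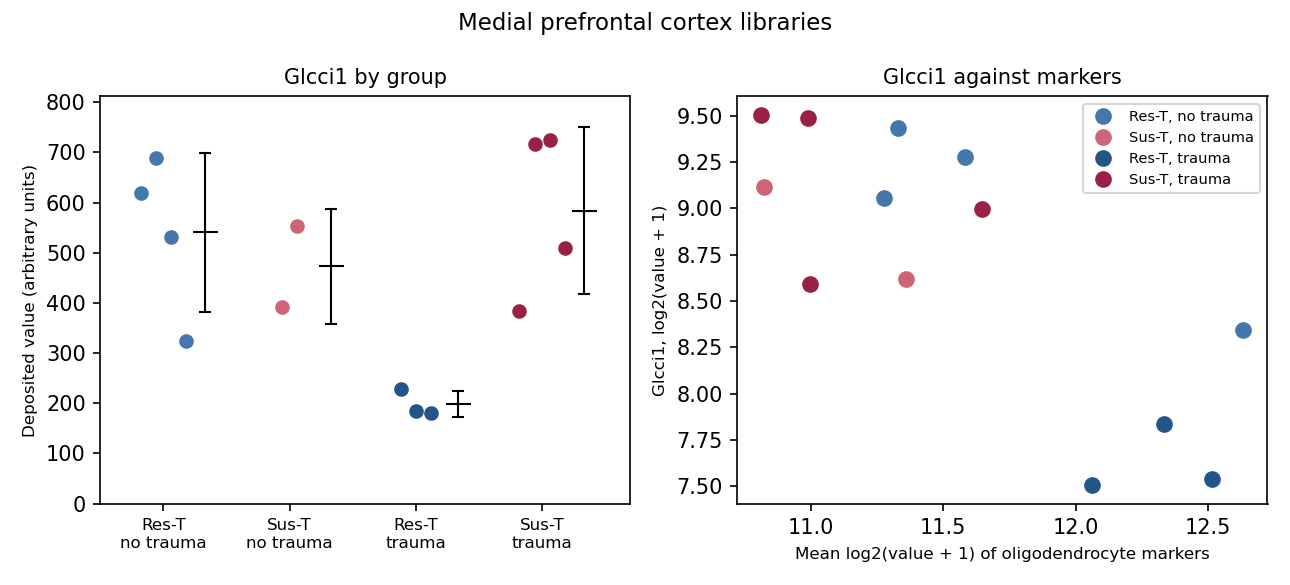
Glcci1 in the 13 prefrontal libraries: on the left its deposited value (arbitrary units) by group, 1 point per library, with bars for mean and SD, and on the right its log2(value + 1) against the mean log2(value + 1) of 9 oligodendrocyte markers. The 3 Res-T libraries with trauma (180.7 to 227.7) lie below all others, and together with Res-T replicate 4 without trauma they are the 4 libraries highest in the markers.

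The genes whose level was most like each member were found by Pearson r over the 13 libraries of its region, in log2(value + 1). For Nr3c1 they were Bicd1 (r = 0.941, and 0.826 within groups), Plxdc2 (0.932), Nbas (0.930), Pde1c (0.927) and Pcdh9 (0.925), among 33 genes above 0.9. For Adcyap1r1 they were Slc41a2 (0.954), Csmd1 (0.954), Fads1 (0.951), Ndrg2 (0.950) and Serpine2 (0.947), among 90 genes above 0.9. Errfi1 had no gene above 0.9, and its nearest were Glb1l2 (0.884), Mroh3 (0.875), Lipo3 (0.858), Plpbp (0.857) and Pip4k2a (0.857). Fkbp5 had 1, Cmip (0.913), followed by Susd4 (0.875), Hist1h2ak (0.843), Hist1h2bf (0.833) and Grik3 (0.808), where the histone genes have near-identical copies among which reads may have been divided. For Glcci1 they were Ppp3cb (0.946), Zfp46 (0.929), Gtpbp6 (0.926), Pwwp2a (0.925) and Smarcc2 (0.921), among 19 above 0.9. The groups and the shared normalization enter every one of these values.

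Other genes of stress hormone and peptide reception were few. Of 16 receptors, ligands and steroid enzymes listed, 2 were measured in each region, and 0 passed in any comparison. Nr3c2, the mineralocorticoid receptor that binds the same hormone, was 177.7 ± 44.2 and 137.9 ± 44.5 in Res-T and Sus-T amygdala without trauma (difference -0.37 ± 0.38, limma adjusted p = 0.506), and 211.8 ± 87.9 and 194.6 ± 57.7 with trauma. Hsd11b1, which regenerates active glucocorticoid, was 26.1 ± 14.5 and 35.9 ± 16.5 without trauma and 40.1 ± 26.2 and 50.9 ± 33.6 with trauma. In the prefrontal cortex with trauma Hsd11b1 was 17.98 ± 7.73 in Res-T and 60.4 ± 64.1 in Sus-T (1.22 ± 0.88, limma adjusted p = 0.333).

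Chaperones that fold and hold the receptor were mostly not called between amygdala groups without trauma. Of 14 measured of 16 listed, 2 rose and 1 fell from Res-T to Sus-T, where 27.4% of all genes were called, so the count does not set the list apart. The list median was 0.21, against -0.03 for all genes. Bag1, a co-chaperone that links Hsp70 to the receptor, rose 2.62-fold from 68.8 ± 1.70 to 182.2 ± 14.9 (log2 1.39 ± 0.33, limma adjusted p = 0.00469). Stip1, which bridges Hsp70 and Hsp90, rose from 278.3 ± 91.4 to 537.4 ± 138.9 (0.97 ± 0.33, limma adjusted p = 0.0372), and Ppid, another immunophilin of the receptor complex, fell from 273.7 ± 27.8 to 171.4 ± 10.4 (limma adjusted p = 0.0336). The main chaperone genes Hsp90aa1 and Hsp90ab1 differed by -0.30 and 0.23 and were not called (limma adjusted p = 0.349 and 0.437). With trauma 0 of 14 passed, the smallest p being that of Bag1 (0.95 ± 0.26, limma adjusted p = 0.153). In the prefrontal cortex 0 of 12 passed in any comparison.

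Coregulators are recruited by the receptor at its target genes. Of 16 measured of 16 listed, 0 rose and 3 fell in Sus-T amygdala without trauma, against 12.4% of all genes higher and 15% lower, with a median of -0.26. Ncoa3, a coactivator of nuclear receptors, fell 2.35-fold from 1148 ± 195.6 to 485.1 ± 42.02 (log2 -1.23 ± 0.20, limma adjusted p = 0.000284) and kept its call without any 1 of the 5 libraries. Tle1, a corepressor, fell from 444.3 ± 71.9 to 249.8 ± 65.3 (limma adjusted p = 0.015), and Ncoa6 fell from 1091 ± 61.5 to 718.5 ± 31 (limma adjusted p = 0.0472), a call lost without any 1 library. In Res-T, Ncoa3 fell to 579.9 ± 67.5 with trauma (-0.98 ± 0.17, limma adjusted p = 0.00607), and Med1, a Mediator subunit, fell there from 467.7 ± 45.2 to 298.1 ± 37.7 (limma adjusted p = 0.0495). In the prefrontal cortex with trauma 1 of 13 passed, Smarca2, a chromatin remodelling ATPase, at 849.8 ± 43.5 in Res-T and 1396 ± 151.5 in Sus-T (limma adjusted p = 0.0158).

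Genes that glucocorticoids are known to induce did not move as 1 block. Of 10 measured of 26 listed, 2 rose and 0 fell in Sus-T amygdala without trauma, where 12.4% of all genes rose and 15% fell, and the median was 0.50. Fam107a rose 3.66-fold from 472.6 ± 76.1 to 1796 ± 745.9 (log2 1.87 ± 0.47, limma adjusted p = 0.00795), and Mt1, a metallothionein, rose 2.79-fold from 596.9 ± 139.3 to 1658 ± 385 (limma adjusted p = 0.0118). Tsc22d3, a classical target also called GILZ, was 610.6 in Res-T and 421.1 in Sus-T (-0.64, limma adjusted p = 0.193), and Glul was 8669 and 9871 (0.21, limma adjusted p = 0.515). Both Fam107a and Mt1 are also strong in astrocytes, whose markers were called higher in 5 of 9 cases in the same comparison. The part of astrocyte RNA in these 2 rises was not tested. In the prefrontal cortex with trauma 1 of 9 passed, Tob2, which was 488.1 ± 92.4 in Res-T and 293.3 ± 49.3 in Sus-T (limma adjusted p = 0.0359).

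The cAMP and phospholipase C genes act downstream of the PACAP receptor. In the amygdala without trauma 7 of 22 measured (25 listed) rose in Sus-T and 2 fell, where 12.4% of all genes rose and 15% fell, and the median was 0.40. Gnas, the stimulatory G protein that couples PAC1 to adenylyl cyclase, rose 2.79-fold from 933.3 ± 93.6 to 2595 ± 119.1 (log2 1.48 ± 0.22, limma adjusted p = 0.000159). Adcy2, an adenylyl cyclase, rose from 58.7 ± 13.4 to 238.6 ± 111.9 (limma adjusted p = 0.00315), and Plcb1, the phospholipase branch, from 230.8 ± 13.5 to 538.0 ± 59.0 (limma adjusted p = 0.00354). Crtc1, a cAMP-regulated coactivator of CREB, rose from 182.1 ± 38.9 to 415.9 ± 17.7 (limma adjusted p = 0.00342), while its relative Crtc2 fell from 155.4 ± 15.7 to 58.9 ± 19.6 (limma adjusted p = 0.00407). Pde4b, which degrades cAMP, fell 2.68-fold from 3180 ± 166.6 to 1234 ± 491.4 (-1.42 ± 0.25, limma adjusted p = 0.000462). With trauma in Res-T, Gnas rose to 1996 ± 532.3 (1.06 ± 0.19, limma adjusted p = 0.00672) and Pde4b fell to 1909 ± 359.7 (limma adjusted p = 0.0391).

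The same list in the prefrontal cortex with trauma had 8 of 14 measured genes higher in Sus-T and 1 lower, where 14% of all genes were higher and 8.93% lower. Its median was 0.88, against 0.15 for all genes. The lists were chosen with earlier results of these data known, so such counts and medians, here and for the other lists, are no test of them. Pde4d, another phosphodiesterase, was 33.8 ± 3.03 in Res-T and 203.8 ± 59.4 in Sus-T (difference 2.51 ± 0.49, limma adjusted p = 0.00349). Crtc1 was 161.3 ± 17.03 and 542.6 ± 178.4 (1.70 ± 0.27, limma adjusted p = 0.00165), Adcy5 was 447.9 ± 110.1 and 882.8 ± 99.2 (limma adjusted p = 0.00713), and Gnaq was 543.1 ± 11.5 and 1092 ± 219.7 (limma adjusted p = 0.00745). Pde4b was again the lower one, at 2572 ± 105.8 in Res-T and 1309 ± 139.4 in Sus-T (-0.98 ± 0.23, limma adjusted p = 0.00745). Oligodendrocyte markers were lower in Sus-T in both comparisons, 13 of 15 called in the amygdala and 7 of 9 in the prefrontal cortex. With the marker mean in the fit the prefrontal differences of the genes named here were smaller, such as 1.09 for Crtc1, 1.06 for Pde4d and -0.43 for Pde4b, and not called.

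In the ErbB pathway that Errfi1 inhibits, 1 of 14 measured genes (19 listed) rose and 4 fell in Sus-T amygdala without trauma, where 12.4% of all genes rose and 15% fell, and the median was -0.23. Gab1, a docking adaptor of ErbB and Met receptors, fell 3.45-fold from 3051 ± 296.7 to 913.6 ± 338.1 (log2 -1.78 ± 0.23, limma adjusted p = 4.1e-05), and Erbb3, a receptor for neuregulins, fell 3.85-fold from 1211 ± 224.2 to 324.5 ± 135.9 (limma adjusted p = 0.000189). Erbb4, another neuregulin receptor, fell from 1312 ± 144.8 to 789.5 ± 76.9 (limma adjusted p = 0.0193), and the adaptor Shc1 fell from 122.5 ± 14.2 to 58.6 ± 2.56 (limma adjusted p = 0.0299). The ligand Nrg1 rose from 13.2 ± 7.19 to 78.2 ± 12.6 (2.64 ± 0.70, limma adjusted p = 0.00963). With trauma in Res-T, Gab1 fell to 1883 ± 327.3 (limma adjusted p = 0.0334). In the prefrontal cortex with trauma Gab1 was 2006 ± 247.5 in Res-T and 889.1 ± 155 in Sus-T (-1.18 ± 0.27, limma adjusted p = 0.00669), and Erbb3 was 949.8 ± 206.1 and 405.3 ± 126.3 (limma adjusted p = 0.0237), 2 lower and 0 higher of 8 measured.

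In the other comparisons the 6 lists gave few calls or none. Trauma in Res-T amygdala called 2 of 16 coregulators, 2 of 22 cAMP genes and 1 of 14 ErbB genes, all named above, and 0 of the other lists, where 6.18% of all genes were called. Between amygdala groups with trauma and under trauma in Sus-T amygdala, 0 genes of any list passed. The smallest p there were those of Adcy5, an adenylyl cyclase (0.77 ± 0.20 between groups with trauma, limma adjusted p = 0.131), and Gab1 (0.87 ± 0.21 under trauma in Sus-T, limma adjusted p = 0.0906). In the 4 prefrontal comparisons that called 0% of genes, 0 list genes passed. Crtc1 differed there by 0.93 ± 0.31 between groups without trauma (limma adjusted p = 0.353) and Prkar2a, a regulatory subunit of protein kinase A, by -1.68 ± 0.53 under trauma in Res-T (limma adjusted p = 0.211).

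Among the list genes named as called in amygdala without trauma, Bag1, Ncoa3, Gnas, Crtc1, Plcb1, Pde4b, Gab1 and Erbb3 kept their call without any 1 library. Crtc2 lost it without Sus-T replicate 1 (limma adjusted p = 0.0796), and Fam107a (0.113), Mt1 (0.111), Adcy2 (0.0659) and Nrg1 (0.0651) lost it without Sus-T replicate 3. Stip1, Tle1 and Erbb4 lost it in 3 of 5 such refits, Ppid and Shc1 in 4 of 5. In Res-T, the trauma calls of Med1, Pde4b and Gab1 were lost in 6, 5 and 5 of 7 refits. Quantile normalization lost them too (limma adjusted p = 0.0792, 0.181 and 0.183), as did limma without trend and robust options (0.0849, 0.0937 and 0.0861). In the prefrontal cortex with trauma the calls of Tob2, Erbb3 and Smarca2 were lost in 5, 4 and 2 of 7. Without those options Tob2 and Erbb3 lost theirs there, and Stip1 and Ncoa6 in the amygdala without trauma, where quantile normalization lost Erbb4 and Ncoa6. The replicate block lost the calls of Med1, Gab1 (both Res-T), Ncoa6 and Tob2. When the oligodendrocyte marker mean was a covariate, each of these list genes named as called lost its call, except Ncoa3 and Gnas under trauma in Res-T, but the differences did not all shrink. Without trauma in the amygdala, Gnas differed by 2.41 ± 0.59, Ncoa3 by -1.61 ± 0.57, Ppid by -1.41 ± 0.60, Nrg1 by 5.41 ± 1.88, Fam107a by 2.46 ± 1.38 and Bag1 by 1.38 ± 0.95, as large as before or larger, with larger standard errors. Others came closer to 0, such as Erbb3 (-0.002 ± 0.71), Pde4b (-0.25 ± 0.64) and Stip1 (0.13 ± 0.94).

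**Figure D5:**
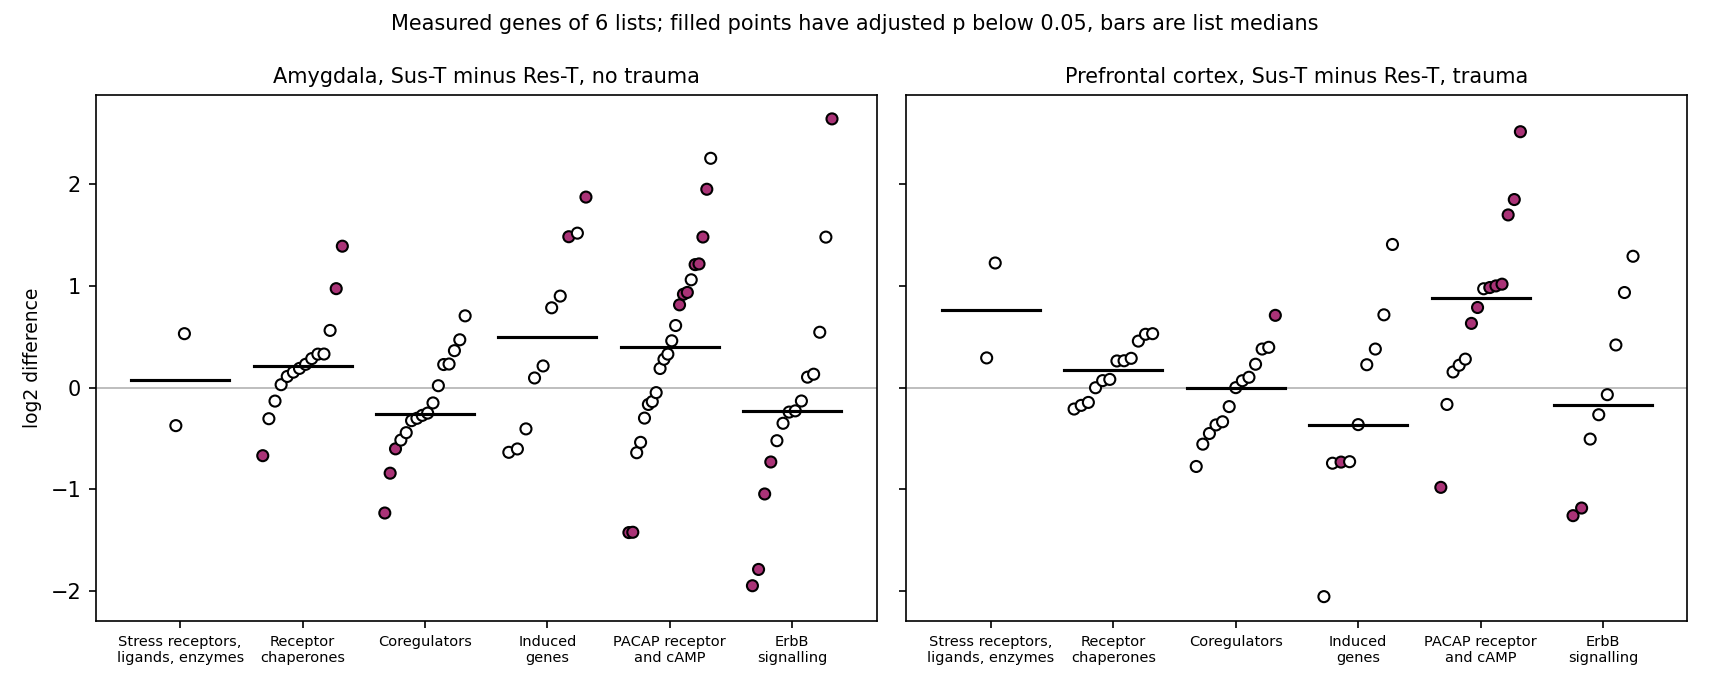
Log2 difference between Sus-T and Res-T (vertical axis) of each measured gene in 6 pathway lists, in the amygdala without trauma on the left and the prefrontal cortex with trauma on the right, with filled points for a limma adjusted p below 0.05 and bars for list medians. The cAMP list has the most filled points above 0 in both panels (7 and 8), and the ErbB list has filled points below 0 (4 and 2). The lists were chosen with earlier results of these data known, so these counts are no test of a list.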

How the data were processed

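RNA of sorted neurons was sequenced in 29 described samples, of which 26 had a column of values. The other 3, marked as removed by the submitters, were not used here. The submitters' processing notes name bcl2fastq 2.20, Salmon 1.2 and the build GRCm38.p6. The deposited values are a signal in arbitrary units that the authors normalized per region, and the normalization method is not given in the sources used here. They were not whole numbers and held no zeros, and read depth could not be read from them. Centred by gene on the log scale, the amygdala values lacked 1 dimension and the prefrontal values 2, of which 0.000 and 0.188 lay between groups, so the spread within groups, and with it the p-values, may be too small. The 3 amygdala Res-T libraries without trauma had almost no weight in the lost dimension (at most 0.000163, against 0.00744 to 0.273 in the others), and they enter 3 of the 5 amygdala comparisons.

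Gene identifiers were matched to GENCODE M21 without their version (9871 of 9872 amygdala and 6080 of 6080 prefrontal identifiers). A count test had been foreseen in case the unit was counts. Since it is a signal, limma was used. In each region a linear model with 4 groups was fitted to log2(value + 1) of all genes with a mean of at least 1, which removed 0 genes, with limma 3.58.1 in R 4.3.3 with the trend and robust options. The residual degrees of freedom were 9, and the prior ones had a median of 8.32 (amygdala) and 8.4 (prefrontal cortex). Fold changes are therefore on the log2(value + 1) scale. Each comparison's p-values were adjusted over all its genes (Benjamini-Hochberg), with a threshold of 0.05. The analysis was checked on simulated data. Figures were drawn with matplotlib 3.10.9.

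The 5 members and the 6 pathway and 7 marker lists were chosen with earlier results of these data known. The genes named are the members, up to 4 rising and 4 falling genes past the threshold per list and comparison, by smallest p, or the gene of smallest p where none passed, and the 5 genes most like each member, leaving out predicted genes and pseudogenes. That last rule was written for the amygdala and was extended to Glcci1 afterwards. Hsp90aa1, Hsp90ab1, Tsc22d3 and Glul, and the values of Hsd11b1 and Nr3c2 beside other comparisons, were added after their values were seen. Alternatives were quantile normalization, other filters and pseudocounts, 2-group fits, a replicate block, an oligodendrocyte marker covariate, plain moderation and leaving out each library. Promoter windows were the RefSeq windows nearest to the annotated start of the principal transcript, and 4 of 5 members had one.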

Additional observations from a re-analysis of the deposited data

Results flagged for a closer look

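The highest Nr3c1 value among the 4 amygdala Res-T libraries with trauma, 1303 in replicate 4, stood farther from the other 3 (984.7 to 1035) than Dixon's 95% limit for 4 values allows. It was 1 of 10 groups of members tested in this way, and chance flags about 1 group in 20. Without this library the difference between Sus-T and Res-T with trauma was 0.11 in place of 0.02.

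For 5 pathway genes of the amygdala the effect of trauma differed between Sus-T and Res-T by the interaction term in limma, adjusted over all genes. They were 1 of 16 measured coregulators, 1 higher and 1 lower of 22 cAMP genes and 2 of 14 ErbB genes. Of all 9872 genes 6.74% were called in that test, and the lists were chosen with earlier results known, so these counts are no test of the lists. The difference, Sus-T minus Res-T in log2, was 1.83 for Erbb3 (limma adjusted p = 0.00983), 1.58 for Gab1 (0.00529), 1.36 for Pde4b (0.0167), 1.18 for Ncoa3 (0.0116) and -1.34 for Gnas (0.0108). In each of the 5 genes the groups without trauma lay far apart and the groups with trauma were close. Gab1, for example, averaged 3051 and 913.6 without trauma and 1883 and 1620 with it, and Gnas 933.3 and 2595 without trauma and 1996 and 2154 with it. Without Sus-T replicate 1 without trauma each of these 5 calls was lost, with limma adjusted p from 0.0656 to 0.142. Pde4b was also not called without limma's trend and robust options (limma adjusted p = 0.0556). In the same test 13 of 15 oligodendrocyte markers were called higher. With their mean as a covariate all 5 calls were lost, at 0.15 for Erbb3, 0.59 for Gab1 and 0.34 for Pde4b, but at 1.51 for Ncoa3 and -2.15 for Gnas, larger than before (limma adjusted p from 0.213 to 0.946).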

How the results depend on the processing

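Of the 108 values compared per setting, counts of genes called and named genes together, filters, pseudocount and 2-group fits left all or nearly all (87 of 89 in the last) in the same direction and on the same side of the threshold, quantile normalization 101, plain moderation 99 and the oligodendrocyte covariate 63. Counts of called genes that moved by over 1.5 times were as follows. Between amygdala groups with trauma, 0 became 2 with quantile normalization, a mean of at least 10 or a pseudocount of 10, and 5 with the covariate. For trauma in Sus-T, 3 became 28, 17 and 18 under those 3 settings and 1 with the covariate. With the covariate the count without trauma was 13 in place of 2706, that for the difference between trauma effects 2, and that of the prefrontal cortex with trauma 0. The covariate also widened standard errors in the amygdala without trauma, as from 0.19 to 0.53 for Nr3c1, so the lower count there does not show that differences were lost. With plain moderation trauma in Res-T called 339 and the difference between effects 366. Signs turned for Nr3c1 with trauma under quantile normalization (-0.039) and, with the covariate, for Errfi1 (0.24) and Tle1 (0.34) without trauma, Errfi1 under trauma in Sus-T (-0.20), and in the prefrontal cortex Nr3c2 without trauma (-0.076) and Hsd11b1 with trauma (-1.67) and under trauma in Res-T (0.58). The cause of these shifts was not tested.

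Leaving out each library gave 1565 (without Sus-T replicate 1) to 2096 calls between amygdala groups without trauma, 0 to 12 with trauma, 101 (without Res-T replicate 1 without trauma) to 708 for trauma in Res-T, 1 to 287 (without Sus-T replicate 3 without trauma) for trauma in Sus-T and 59 (without Sus-T replicate 1 without trauma) to 810 for the difference. In the prefrontal cortex the ranges were 0 to 53 without trauma, 624 (without Res-T replicate 1 with trauma) to 1163 with trauma, 0 to 588 (without Res-T replicate 4 without trauma) for trauma in Res-T, 0 to 3 in Sus-T and 0 to 12 for the difference. A lone library left in a group was assumed to vary like the others. Signs turned within these ranges for Nr3c1 with trauma (-0.039 to 0.11), Fkbp5 with trauma (-0.012 to 0.37) and under trauma in Res-T (-0.74 to 0.89), Adcyap1r1 under trauma in Sus-T (-0.39 to 0.37) and Glcci1 without trauma (-0.41 to 0.09). They also turned for Nr3c2 in the amygdala under trauma in Res-T (-0.057 to 0.44) and in the difference (-0.037 to 0.63), for Hsd11b1 with trauma (-0.26 to 1.14), and in the prefrontal cortex for Nr3c2 in the difference (-0.51 to 0.069) and Dusp1 under trauma in Sus-T (-1.20 to 0.14).

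Libraries share replicate numbers across groups, and whether the numbers pair them could not be settled. Deviations of same-numbered libraries from their group means had a median correlation of -0.04 among amygdala and -0.092 among prefrontal libraries, with 3 of 16 pairs over 0.1 in each. For differently numbered libraries the medians were 0.016 and 0.026, with 12 and 15 of 46 pairs over 0.1. Deviations within a group cancel out, so in groups this small the check could not exclude pairing. With the replicate number as a block the amygdala counts were 2505 without trauma, 10 with trauma, 677 and 2 for trauma in Res-T and Sus-T and 463 for the difference, the prefrontal count with trauma was 1055, and Adcyap1r1 under trauma in Sus-T turned to 0.057.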
